A study of Mus musculus with 9 samples.

Results

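A set of 165 genes differed from control in the same direction in both huntingtin mutant striatal lines, 122 higher and 43 lower, by Ribo-seq of 9 libraries. Ribo-seq counts stretches of mRNA covered by a ribosome at the time of nuclease digestion, so a value here reflects both how much of an mRNA a cell holds and how many ribosomes sit on it. The genes were chosen by their CPM (counts per 1e6 counts of the library). A gene entered when its mean reached 5 CPM in at least 1 line, all 6 mutant values lay above, or all below, every control value, each mutant mean differed from the control mean at least 2-fold, and the mutant means differed from each other less than 2-fold. The table held 36410 rows, of which 9918 reached 5 CPM, so the higher genes were 1.23% and the lower genes 0.434% of those that could have entered. Because the same values chose the genes, their levels and folds are a description and carry no test.

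The 3 immortalized mouse striatal lines, all labelled C57/BL6, were STHdhQ7/Q7 (control), STHdhQ7/Q111 (the heterozygous line, HD-het) and STHdhQ111/Q111 (the homozygous line, HD-homo). The first exon of their huntingtin (Htt) alleles encodes 7 or 111 glutamines, the Q111 allele being a knock-in. The paper derives the control line from wild-type embryos. Each genotype had 3 libraries. All cells had received cycloheximide, which arrests elongating ribosomes, for 10 min, and fragments of 26 to 32 nt were taken from the 80S monosome fraction. Each genotype is 1 cell line, so an effect of the Q111 allele and a difference between lines cannot be told apart, and nothing in the labels says that the libraries of a line came from separate cultures.

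Expanded glutamine tracts in huntingtin cause Huntington disease, which damages striatal neurons first. Lines derived from embryonic striatum divide in culture and are used to study the allele outside the animal. Genes that differ from control alike in both mutant lines are those for which the lines resemble each other, in contrast to genes that follow only 1 line or the number of Q111 alleles. Of the 9918 genes, 1577 differed at least 2-fold with no overlap in 1 mutant line while staying under 2-fold in the other.

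The library totals ran from 22504543 to 41888701 counts, and a count of 3, the limit that a count of 0 allows, equals 0.0716 to 0.133 CPM. Of 18 listed markers of striatal projection neurons, 6 had at most 3 counts in every library. Among these, Drd1 and Drd2 had no count at all. Ppp1r1b, Foxp1, Ebf1 and Meis2 reached 5 CPM in at least 1 line. The list summed to 82.8 to 92.8 CPM in control, 96.1 to 106 in HD-het and 98.7 to 112 in HD-homo libraries. Both mutant lines had less of the summed neuron marker list (234 to 267 CPM in control, 135 to 157 in HD-het, 159 to 162 in HD-homo libraries). Stmn2 and Gap43, which the rule chose as lower genes, are on that list. Stmn2 alone made up much of the control sum, with values given below, so this sum is not independent of the rule. Fibroblast and mesenchymal markers summed to 4507 to 7067 CPM in control, against 16419 to 19419 for HD-het and 7906 to 9289 for HD-homo libraries, with 11 of 12 markers above the floor. Pericyte and smooth muscle markers summed to 4135 to 4669 CPM in control, against 7638 to 9981 for HD-het and 391 to 606 for HD-homo libraries, and so lay on opposite sides of control. Fewer cells of a type and less RNA per cell cannot be told apart in such libraries, and the part of these shifts in the results below was not tested.

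Before the fold threshold, 1024 genes lay wholly above control in all 6 mutant libraries (10.3% of 9918) and 1107 wholly below (11.2%). The 2-fold threshold left 291 and 93, and the limit on the mutant means left 122 and 43. The genes with larger changes were thus more often higher than lower, whereas the non-overlapping genes divided nearly evenly. Among the higher genes, the smaller of the 2 folds had a median of 2.82 (2.01 to 363, quartiles 2.23 and 4.39), and 38 genes reached 4-fold. Among the lower genes it had a median of 2.60 (2.12 to 14.5, quartiles 2.24 and 3.88), and 11 reached 4-fold. Of the 122 higher genes the larger mean was in HD-het cells for 59 and in HD-homo cells for 63. Of the 43 lower genes the smaller mean was in HD-homo cells for 26 and in HD-het cells for 17. Single values of the mutant lines overlapped in 73 of the higher and 31 of the lower genes.

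**Figure D1:**
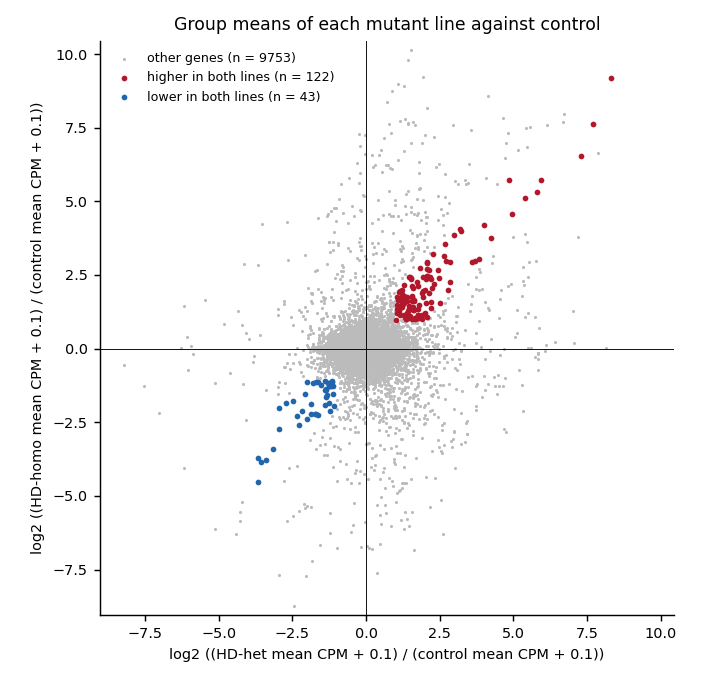
Each point is 1 gene with a mean of at least 5 CPM in at least 1 line. The axes give the log2 ratio of the HD-het (horizontal) and HD-homo (vertical) group mean to the control mean after 0.1 CPM was added to each, with the 122 higher genes in red, the 43 lower genes in blue and all others in grey. The red and blue points lie near the diagonal because the rule limits the ratio of the mutant means, while most grey points far from the centre lie toward 1 axis.

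Several of the higher genes had under 1 CPM in every control library. Dnajc15 (chromosome 14, 77826217 to 77874917, GRCm38) encodes a mitochondrial inner membrane J protein that was first described as silenced by methylation. It had a count of 0 in all 3 control libraries, 16.7, 14.5 and 15.4 CPM in HD-het and 9.88, 8.85 and 8.84 CPM in HD-homo libraries. Set against the floor of 3 counts per library, the bound was at least 155-fold for HD-het and at least 91.8-fold for HD-homo. Bhlhb9 (chromosome X, 135841639 to 135891081), of the GPRASP and ARMCX family of armadillo proteins, had 2 counts in the control libraries together. Its values were 25.9, 28.6 and 21.0 CPM in HD-het and 22.4, 26.4 and 22.8 CPM in HD-homo libraries, which overlap. The ratio of pooled counts was 1213 (95% counting interval 335 to 10023) for HD-het and 1118 (309 to 9234) for HD-homo. These intervals cover counting error only. Gprasp2, which overlaps Bhlhb9, had a mean of 0.0658 CPM or less in every line. Aebp1 (chromosome 11, 5861866 to 5872248) encodes a secreted collagen-binding protein. It had 0.566, 0.621 and 0.926 CPM in control, 229, 198 and 339 CPM in HD-het and 471, 365 and 559 CPM in HD-homo libraries, folds of 363 and 660. Pold2, which overlaps Aebp1, had means of 69.3 CPM in control, 44.4 for HD-het and 55 for HD-homo, and so lay the other way. Aebp1 and Ifi27 missed the limit on the mutant means without HD-het replicate 3 or without HD-homo replicate 2, Ifi27 also without HD-homo replicate 1, Rnf39 without HD-homo replicate 1, and Lif without HD-homo replicate 3.

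The start regions of Dnajc15, Bhlhb9 and Aebp1 are shown as examples of genes with under 1 CPM in every control library. Others, such as Cd302 and Tep1, met the same limit. CpG content is the usual way to class promoters. Each run spans 250 bases before to 50 bases after the annotated start (RefSeq, GRCm38.p6), reads 5′ to 3′ on the gene's strand and has every CpG in capitals. For Bhlhb9 the listed start lies inside the gene range given above and not at its first base. The windows lie at chr14:77874868-77875167 (minus strand), chrX:135885601-135885900 (plus) and chr11:5861616-5861915 (plus).
Dnajc15: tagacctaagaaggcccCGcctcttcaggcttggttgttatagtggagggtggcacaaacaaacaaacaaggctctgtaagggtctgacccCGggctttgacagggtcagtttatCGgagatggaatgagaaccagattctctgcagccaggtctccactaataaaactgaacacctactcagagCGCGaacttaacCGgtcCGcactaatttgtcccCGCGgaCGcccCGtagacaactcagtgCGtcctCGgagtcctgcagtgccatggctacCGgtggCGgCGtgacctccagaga
Bhlhb9: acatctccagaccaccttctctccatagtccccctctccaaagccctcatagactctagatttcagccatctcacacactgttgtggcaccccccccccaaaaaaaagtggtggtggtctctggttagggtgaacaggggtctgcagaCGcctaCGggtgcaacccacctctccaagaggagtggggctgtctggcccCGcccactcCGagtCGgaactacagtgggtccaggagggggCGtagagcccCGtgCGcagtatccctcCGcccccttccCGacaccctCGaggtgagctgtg
Aebp1: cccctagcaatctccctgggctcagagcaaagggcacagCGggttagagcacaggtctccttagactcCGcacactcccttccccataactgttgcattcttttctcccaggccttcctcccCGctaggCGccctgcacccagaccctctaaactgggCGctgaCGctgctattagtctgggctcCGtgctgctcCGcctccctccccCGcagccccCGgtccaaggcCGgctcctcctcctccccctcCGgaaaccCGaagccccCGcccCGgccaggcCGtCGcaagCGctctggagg

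They hold 16, 11 and 18 CpG. Divided by the number expected from the C and G content, this gave ratios of 0.705, 0.404 and 0.602. Of the other genes under 1 CPM in every control library, Cd302 had a ratio of 0.234 and Galnt13 of 0.731. A promoter entry was found for 128 of the 165 genes, 103 higher and 25 lower. The 131 promoters of the higher genes had a median CpG ratio of 0.582 and the 38 of the lower genes 0.604. For comparison, the median was 0.711 for genes that moved in 1 mutant line only and 0.783 for all genes at 5 CPM or more. A ratio of at least 0.6 was found in 48.9% of the promoters of higher genes, 50.0% of those of lower genes, 63.7% of those that moved in 1 line and 74.5% of those at 5 CPM. Promoters of the shared genes were thus less often CpG-rich than those of all genes at 5 CPM, as a description with no test. These shares count promoters and not genes, so a gene with several starts counts several times. The 131 promoters of higher genes came from 103 genes, and the 38 of lower genes from 25. Among the lower genes, Ccser2 and Mid1 each gave several starts with a ratio under 0.6. DNA methylation was not measured in these libraries.

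The other genes with the largest folds were of varied function. Cd302, a C-type lectin receptor, had 0.0755, 0.167 and 0.116 CPM in control, 11.8, 15.0 and 13.2 CPM in HD-het and 12.3, 9.38 and 13.1 CPM in HD-homo libraries, a mean 112-fold and 97.0-fold above control. Pir, an iron-binding nuclear protein, had 17.2, 16.6 and 12.5 CPM in HD-het and 10.8, 13.4 and 8.62 CPM in HD-homo libraries. Its control values were 0.377, 0.0716 and 0.0771 CPM, so 1 library carried most of the control mean of 0.175, and the fitted log2 change of the mean of both lines was 6.31 with it and 7.38 without it. Tep1, the telomerase-associated protein, had 0.397 ± 0.0775 CPM (SD, n = 3) in control, 20.8 ± 2.03 CPM among HD-het and 17.2 ± 3.21 CPM among HD-homo libraries. None of these control libraries came near a mutant library.

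Galnt13, which starts O-linked glycans, was 24.7-fold and 17.6-fold higher, at 7.84 ± 1.07 CPM for HD-het and 5.57 ± 0.525 for HD-homo against 0.317 ± 0.0929 in control. Maf, a leucine zipper transcription factor, was 17.6-fold and 19.9-fold higher, with control libraries between 0.931 and 1.09 CPM and mutant libraries between 11.9 and 25.5 CPM. Rnf39, a RING finger protein, was 12.1-fold and 22.3-fold higher, from a control mean of 0.283 CPM, and the libraries of the mutant lines did not overlap. Of the 165 genes, 162 were annotated as protein coding, and 3 with predicted or clone names are counted but not named.

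**Figure D2:**
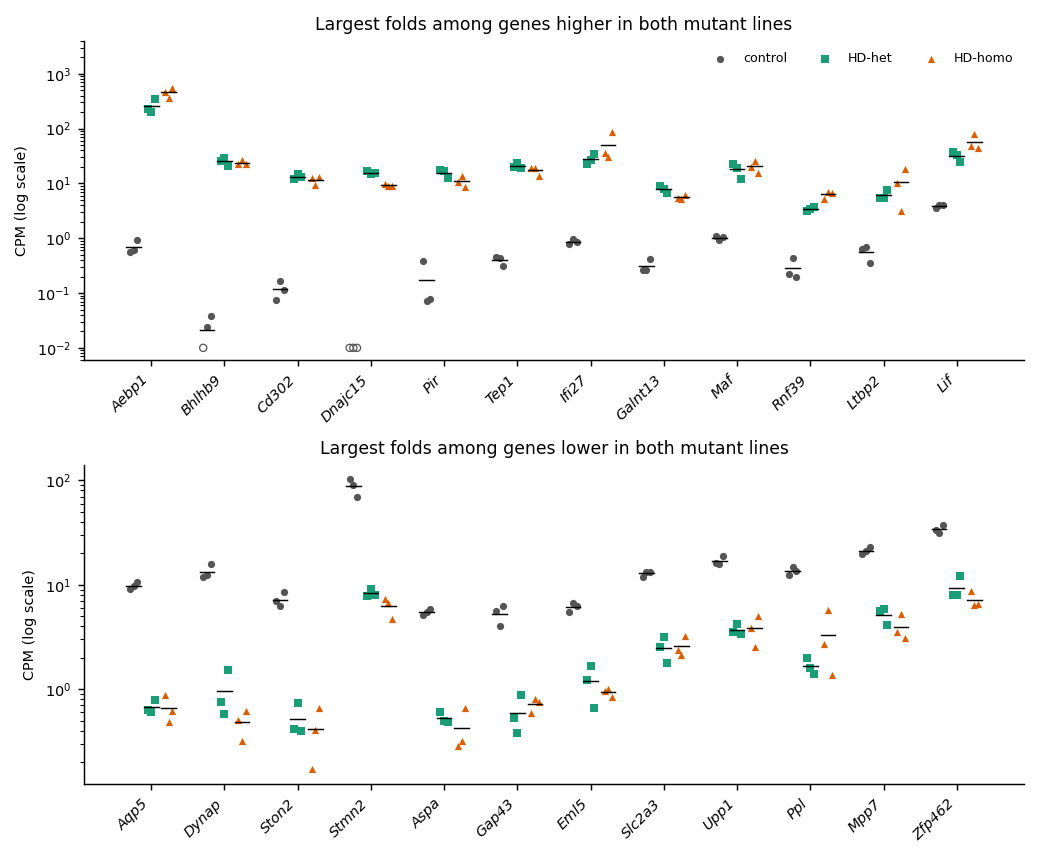
CPM on a log scale of the 12 higher genes (top) and 12 lower genes (bottom) with the largest smaller fold among genes that are named here (predicted genes and clones left out), 3 libraries per line (grey circles control, green squares HD-het, orange triangles HD-homo) with a bar at each mean. Open circles, drawn at 0.01, mark libraries with a count of 0, which are the 3 control libraries of Dnajc15 and 1 of Bhlhb9, and in every gene the mutant libraries lie on 1 side of control.

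Genes of the extracellular matrix gave more members than any other list fixed here. The matrix is the network of fibres and adhesive glycoproteins that mesenchymal cells lay down around themselves. From a list of 121 collagens and matrix proteins, 91 reached 5 CPM. Of these, 11 were among the higher genes (12.1%, against 1.23% of all genes) and none among the lower. Fibulin 2 (Fbln2), which bridges elastic fibres and basement membranes, had 95.2, 110 and 68.8 CPM in control, 1006, 1029 and 1302 CPM in HD-het and 935, 453 and 709 CPM in HD-homo libraries. Its folds were 12.2 and 7.66, and the lowest mutant library was HD-homo replicate 2. Ltbp2, a fibrillin-binding protein of microfibrils, had 0.641, 0.692 and 0.347 CPM in control, 5.32, 5.48 and 7.55 CPM in HD-het and 10.0, 3.10 and 18.4 CPM in HD-homo libraries. The HD-homo libraries thus spread more widely than their distance to HD-het, and the lowest of them was replicate 2.

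Osteoglycin (Ogn) and osteomodulin (Omd), small leucine-rich proteoglycans that bind collagen, lie next to each other on chromosome 13 (Omd at 49582462 to 49592612, Ogn at 49608015 to 49624501), 15403 bases apart with no gene between them. Ogn had 52.8, 54.3 and 31.4 CPM in control, 352, 433 and 210 CPM in HD-het and 317, 395 and 357 CPM in HD-homo libraries. Omd was 5.57-fold and 6.63-fold higher, against 7.19-fold and 7.72-fold for Ogn. Both lie inside Cenpp, whose means were 23 CPM for control, 28.1 for HD-het and 31.7 for HD-homo. The remaining members of the list were Emilin2, Loxl1, Lamb2, Wisp2, P4ha3, Igfbp3 and Igfbp7. Among them Loxl1, a lysyl oxidase that crosslinks elastin, had 25.9 ± 8.69 CPM in control, against 129 ± 5.38 for HD-het and 118 ± 25.7 for HD-homo.

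The 11 genes together held 221 to 378 CPM in control, against 2039 to 2250 for HD-het and 1254 to 1891 for HD-homo libraries. HD-homo replicate 2 was the lowest of its line in 8 of the 11 genes, and control replicate 3 the lowest of its line in 10. Without HD-homo replicate 2, 10 of the 11 still met the rule, all but Ltbp2, whose mutant means then differed too much. Lamb2 dropped out without control replicate 3, HD-het replicate 1 or 2, or HD-homo replicate 1, and P4ha3 without control replicate 3 or HD-homo replicate 3. The other 8 met the rule whichever library was left out. Over the whole list the lines parted. The fitted log2 change had a median of 1.98 for HD-het and 0.33 for HD-homo over the 106 genes tested, against 0.02 and 0.02 over all 12678 genes. The summed fibroblast and mesenchymal markers given above were higher in both mutant lines, and higher in HD-het than in HD-homo cells. That marker list shares genes with the matrix list, among them Col1a2 and Dcn, so the 2 lists are not independent. By edgeR, 3 of its 9 tested markers were called higher in each line (33.3%, against 9.54% of all genes). Their median fitted log2 change was 0.81 for HD-het and 0.45 for HD-homo. Matrix proteases and inhibitors added Adam19, a membrane metalloprotease that was 13.4-fold and 8.14-fold higher, and Reck, a membrane-anchored protease inhibitor that was 3.56-fold and 2.29-fold higher.

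A further group with several members was antigen presentation by MHC class I. Class I molecules pair a heavy chain with beta-2 microglobulin and display peptides that TAP carries into the endoplasmic reticulum and ERAP1 trims, and interferons raise most of these genes. The list held 24 genes, of which 12 reached 5 CPM and 5 were higher (41.7%, against 1.23%). B2m (chromosome 2) had 374, 383 and 377 CPM in control, 782, 794 and 991 CPM in HD-het and 787, 722 and 1488 CPM in HD-homo libraries. The heavy chain gene H2-D1 (chromosome 17) had 11.4, 13.4 and 9.76 CPM in control, 23.7, 24.3 and 28.0 CPM in HD-het and 38.8, 24.2 and 69.4 CPM in HD-homo libraries. In both genes HD-homo replicate 3 stood well above the other mutant libraries, and HD-homo replicate 2 overlapped or lay below HD-het. Tap1, a subunit of the peptide transporter, was 2.93-fold and 5.67-fold higher, and H2-Q4, a further heavy chain, 2.87-fold and 5.69-fold. Erap1 was 2.63-fold and 2.05-fold higher, at 49.5 ± 9.63 CPM for HD-het and 38.5 ± 7.94 for HD-homo against 18.8 ± 3.07 in control.

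HD-homo replicate 3 was the highest of its line in 4 of these 5 genes, and HD-homo replicate 2 the lowest in all 5. Leaving out HD-homo replicate 3 took the HD-homo fold of H2-D1 from 3.83 to 2.74, that of Tap1 from 5.67 to 3.89 and that of H2-Q4 from 5.69 to 3.42, and B2m, Erap1 and H2-Q4 then missed the rule. Leaving out HD-homo replicate 1 removed Erap1, H2-Q4 and Tap1, and leaving out HD-homo replicate 2 removed H2-D1, H2-Q4 and Tap1, in each case leaving 2 of the 5. All 5 genes stayed above control, since leaving out a library cannot make separated groups overlap. H2-D1, H2-Q4 and H2-L, which was also among the 122, are close in sequence, and how fragments that match several of them were counted is not given in the sources used here, so their separate values are uncertain. C1ra and C1rb, and Ugt1a6a and Ugt1a6b, are uncertain for the same reason.

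B2m and Erap1 were the only members of this list whose promoter window matched GAAANNGAA on either strand, while Tap1, H2-D1 and H2-Q4 did not. These letters were the only form of the core of the interferon-stimulated response element that was searched. The H2-D1 and H2-Q4 windows hold the run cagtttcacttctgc. On the opposite strand this run has the same parts in the reverse order, which the search does not find. The search therefore cannot show that these windows lack the element. The windows of B2m and Erap1, at chr2:122147437-122147736 and chr13:74639603-74639902 (both plus strand, GRCm38.p6), are shown to set the match in its context. Capitals mark the match, which in Erap1 is an overlapping repeat on the opposite strand.
B2m: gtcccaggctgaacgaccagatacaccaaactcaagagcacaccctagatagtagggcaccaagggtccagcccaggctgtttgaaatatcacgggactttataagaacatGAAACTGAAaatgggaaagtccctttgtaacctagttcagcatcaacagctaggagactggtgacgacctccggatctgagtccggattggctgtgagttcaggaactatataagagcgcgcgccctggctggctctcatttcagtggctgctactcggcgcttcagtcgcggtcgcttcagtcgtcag
Erap1: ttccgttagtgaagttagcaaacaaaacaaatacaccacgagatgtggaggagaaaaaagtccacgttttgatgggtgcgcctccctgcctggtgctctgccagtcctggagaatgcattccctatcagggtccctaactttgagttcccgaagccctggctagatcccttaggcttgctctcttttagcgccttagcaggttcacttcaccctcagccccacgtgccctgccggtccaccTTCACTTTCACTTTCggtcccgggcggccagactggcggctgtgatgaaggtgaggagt

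Over all members the motif was found in 11 of the 131 promoters of higher genes (8.40%), 2 of the 38 of lower genes (5.26%), 6.92% of the promoters of genes at 5 CPM and 8.56% of all promoters in the table. A match is a run of letters and not a binding site. The AP-1 letters TGANTCA were found in 9.92% of the promoters of higher genes and 18.4% (7 of 38) of those of lower genes, where Upp1 gave 2 of the 7, against 4.90% at 5 CPM and 7.81% of all promoters. In all, 12 motifs were searched.

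**Figure D3:**
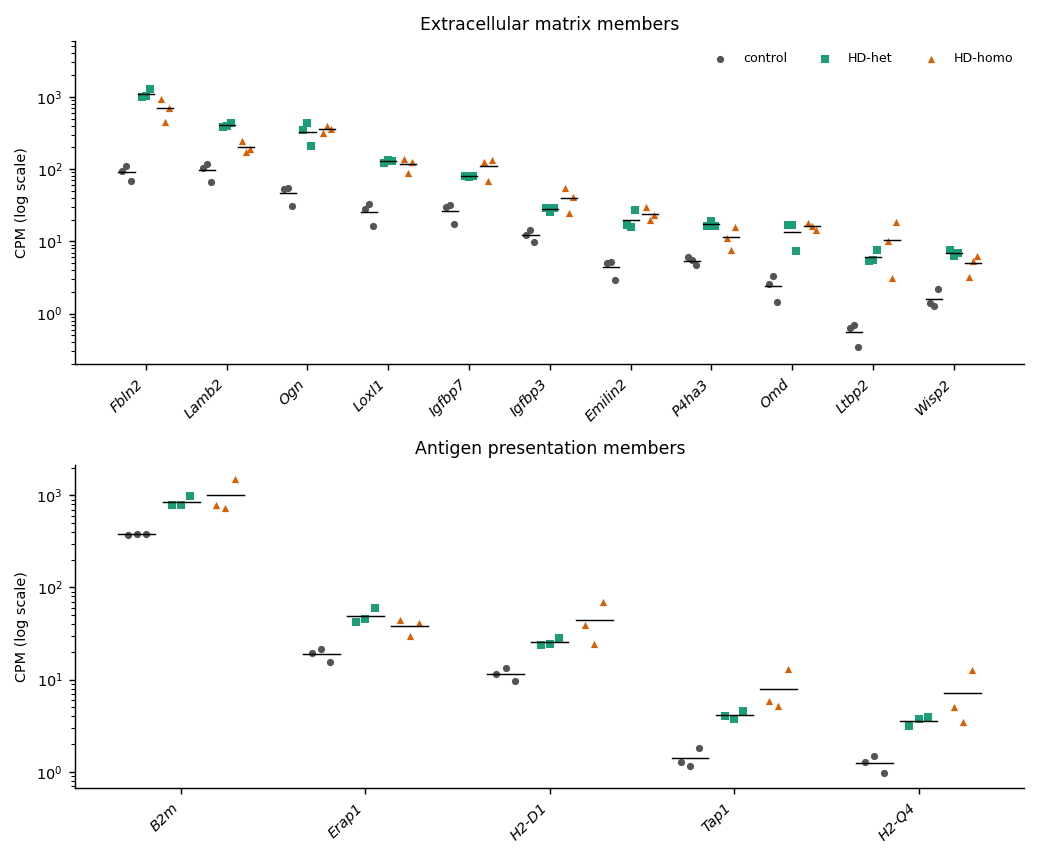
CPM on a log scale of the 11 extracellular matrix genes (top) and the 5 antigen presentation genes (bottom) higher in both mutant lines, with symbols as in the plot of the largest folds and a bar at each mean. The HD-homo libraries were the widest spread of the 3 lines in Ltbp2 (3.10 to 18.4 CPM), Tap1 (5.15 to 13.1 CPM) and H2-Q4 (3.50 to 12.8 CPM).

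Of 53 listed interferon-stimulated genes 36 reached 5 CPM, and 2, Ifi27 and Herc6, were members (5.56%, against 1.23% of all genes). Ifi27, a small mitochondrial and membrane protein, had 0.792, 0.955 and 0.849 CPM in control, 22.2, 27.0 and 34.2 CPM in HD-het and 35.9, 29.7 and 86.1 CPM in HD-homo libraries, with HD-homo replicate 3 again the highest. Herc6, a ubiquitin ligase that attaches ISG15, was 2.44-fold and 2.94-fold higher, and its HD-het (8.25 ± 1.30 CPM) and HD-homo (9.95 ± 2.04 CPM) libraries overlapped. By edgeR, 24 of the 46 listed genes tested were called higher in each mutant line (adjusted p under 0.05 in both) and none lower, against 9.54% higher and 7.46% lower of all genes. The fitted log2 change over the list had a median of 1.61 for HD-het and 4.91 for HD-homo, which is a wider gap between the mutant lines than the rule allows. Isg15, which is attached to other proteins, rose by log2 2.00 ± 0.31 (SE) in HD-het (adjusted p = 0.000201) and by 6.16 ± 0.26 for HD-homo (adjusted p = 9.08e-09, edgeR). Members chosen outside the list after their values were seen, and often grouped with it, were Helz2 (3.71-fold and 7.07-fold), Ube2l6 (2.36-fold and 2.97-fold), Nmi (2.80-fold and 2.58-fold) and Trim56 (3.02-fold and 2.04-fold).

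Secreted signals and their receptors made up a further share. Of 20 listed chemokines, cytokines and complement genes at 5 CPM, 4 were members (20.0%, against 1.23%), which were Lif, C1ra, C1qtnf1 and C1qtnf6. Leukemia inhibitory factor (Lif), a cytokine of the interleukin 6 family, had 3.51, 4.11 and 4.05 CPM in control, 36.9, 33.4 and 25 CPM in HD-het and 48.8, 79.5 and 43.7 CPM in HD-homo libraries. Complement C1ra, a protease that starts the classical pathway, was 4.38-fold and 5.82-fold higher, and its neighbour C1rb on chromosome 6 was 4.47-fold and 5.93-fold higher. By edgeR, 16 of the 36 genes tested were called higher in each line (44.4%, against 9.54% of all genes) and 1, Serping1, lower (2.78%, against 7.46%). Vegfa, the vascular endothelial growth factor, had 124, 126 and 101 CPM in control, 266, 228 and 228 CPM in HD-het and 270, 263 and 361 CPM in HD-homo libraries. Inhba, a subunit of activin, was 2.67-fold and 2.23-fold higher. Its HD-homo values of 331, 157 and 399 CPM came down close to the highest control library, at 153 CPM.

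Hepatocyte growth factor (Hgf) and its receptor Met went opposite ways. Hgf had 2.30, 1.62 and 1.43 CPM in control, 3.11, 3.29 and 7.20 CPM in HD-het and 10.2, 4.14 and 4.67 CPM in HD-homo libraries, so 1 library of each mutant line stood above the other 2. Met had 119, 122 and 91.4 CPM in control, 42.8, 46.1 and 59.5 CPM in HD-het and 62.3, 43.9 and 50.3 CPM in HD-homo libraries. The folds were 2.54 and 3.56 upward for the ligand and 2.24 and 2.13 downward for the receptor. Other higher genes on the lists of signalling were Ror2, a Wnt5a receptor (3.69-fold and 2.17-fold), and Fas, the death receptor and p53 target (3.44-fold and 2.07-fold).

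Further lists held 1 or 2 members each. The transcription factors Snai2, a repressor that drives mesenchymal change (2.33-fold and 4.01-fold), and Prrx2, a homeobox factor of mesenchyme (2.72-fold and 2.12-fold), were higher. So was Egr2, an immediate early gene (3.02-fold and 2.68-fold). Hmox1, which degrades heme, had 54.9, 55.7 and 49.1 CPM in control, 187, 182 and 98.6 CPM in HD-het and 139, 139 and 214 CPM in HD-homo libraries. Mgst1, a microsomal glutathione transferase, was 3.15-fold and 3.14-fold higher, with means of 8.68 ± 1.42 CPM for HD-het and 8.64 ± 0.955 CPM for HD-homo. Ldhb, the heart form of lactate dehydrogenase, was 2.90-fold and 5.19-fold higher. Optn, an autophagy receptor, was 2.16-fold and 2.38-fold higher, and Kdm7a, a histone demethylase, 2.77-fold and 2.76-fold. The mitotic cyclin Ccnb2 (2.73-fold and 2.57-fold) and the CDK inhibitor Cdkn2c (2.54-fold and 3.19-fold) were both higher. Armcx2, a second gene of the family of Bhlhb9 and also on chromosome X, had 10.4 ± 0.701 CPM in control, against 31.6 ± 2.70 for HD-het and 26.6 ± 3.86 for HD-homo. F11r, a tight junction adhesion molecule, was 2.39-fold and 3.19-fold higher.

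Among the higher genes with the most footprints were also Anxa8, a calcium-dependent membrane-binding protein, and Lamb2, a laminin chain. Anxa8 had 113, 106 and 93.5 CPM in control, 267, 262 and 284 CPM in HD-het and 322, 306 and 437 CPM in HD-homo libraries. Lamb2 had 105, 119 and 66.1 CPM in control, 387, 400 and 432 CPM in HD-het and 246, 171 and 193 CPM in HD-homo libraries. Lamb2 was the gene nearest the limit on the mutant means, which differed by just under 2-fold, and no mutant library of 1 line overlapped the other.

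Of the 43 lower genes, 5 were at least 10-fold lower in both mutant lines. Stathmin 2 (Stmn2), which regulates microtubules in growing axons, had 103, 90.7 and 69.5 CPM in control, 7.79, 9.16 and 8.03 CPM in HD-het and 7.29, 6.72 and 4.71 CPM in HD-homo libraries. Gap43, a growth cone protein, had 5.58, 3.99 and 6.25 CPM in control, 0.524, 0.384 and 0.878 CPM in HD-het and 0.596, 0.805 and 0.755 CPM in HD-homo libraries. Stmn2 was 10.5-fold and 14.0-fold lower, Gap43 8.86-fold and 7.34-fold. Both are on the neuron marker list. Its 8 tested genes held 3 called lower in each line (Stmn2, Gap43 and Nefm) and none higher, against 7.46% and 9.54% of all genes. The rule chose Stmn2 and Gap43 from the same values, so only Nefm was called outside the rule. Control replicate 3 was the lowest control library for Stmn2 and the highest for Gap43.

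Aquaporin 5 (Aqp5), a water channel, had 9.21, 9.69 and 10.5 CPM in control, 0.637, 0.603 and 0.790 CPM in HD-het and 0.880, 0.483 and 0.622 CPM in HD-homo libraries. Aqp1, another water channel and named after its values were seen, was 2.55-fold and 2.60-fold lower. Dynap, a membrane protein, was 14.0-fold and 27.6-fold lower, and Ston2, an endocytic adaptor, 14.0-fold and 17.5-fold. Aspa, which splits N-acetylaspartate, was 10.4-fold and 12.9-fold lower, with control libraries at 5.13 to 5.82 CPM and mutant libraries at 0.284 to 0.667 CPM. In Aqp5, Dynap, Ston2 and Aspa the mutant lines overlapped each other while standing far below control. Eml5, a microtubule-binding protein, was 5.16-fold and 6.54-fold lower.

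Among 137 genes at 5 CPM that carry the symbol of solute carriers (Slc), 1 was a higher member (0.73%, against 1.23% of all genes). Lower members numbered 4, where 0.434% of all genes were lower. They include Slc9a3r1, a scaffold protein that is listed by its symbol and is not itself a carrier. By edgeR, 20 of the 205 tested were called higher (9.76%) and 15 lower (7.32%) in each line, close to 9.54% and 7.46% of all genes. The higher member was Slc7a2, a transporter of cationic amino acids, which was 2.99-fold and 4.44-fold higher. Slc2a3, the glucose transporter GLUT3, had 12, 13.4 and 13.2 CPM in control, 2.51, 3.13 and 1.80 CPM in HD-het and 2.36, 2.13 and 3.24 CPM in HD-homo libraries. Slc1a5, a glutamine transporter, was 2.62-fold and 3.75-fold lower, and Slc5a3, a myo-inositol transporter named after its values were seen, 2.28-fold and 2.18-fold. Mrps6, whose locus contains Slc5a3, had means of 207 CPM for control, 77.1 for HD-het and 151 for HD-homo. Uridine phosphorylase 1 (Upp1) was 4.57-fold and 4.45-fold lower. Fdps, which makes farnesyl diphosphate on the route to cholesterol, had 206, 200 and 258 CPM in control, 81.2, 73.8 and 97.6 CPM in HD-het and 100, 124 and 88.6 CPM in HD-homo libraries. Fdps was the only member of the 35 listed genes of cholesterol and fatty acid synthesis at 5 CPM. By edgeR, 17 of the 38 tested were called lower in each line (44.7%, against 7.46% of all genes) and 1, Srebf1, higher (2.63%, against 9.54%), with a list median of the fitted log2 change of -0.66 for HD-het and -0.61 for HD-homo.

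Cryab, a small heat shock protein that keeps other proteins from aggregating, had 151, 159 and 167 CPM in control, 56.9, 53.8 and 34.9 CPM in HD-het and 27.2, 31.9 and 43.9 CPM in HD-homo libraries. Hspb2, which overlaps it, had a mean under 1 CPM in each line. Cryab was the only lower member of the heat shock and protein folding list, of which edgeR called 12 of 41 lower in each line (29.3%, against 7.46% of all genes) and 2, Dnajc15 and Bag3, higher (4.88%, against 9.54%). Hsph1, a large chaperone, fell, with a log2 change of -1.33 ± 0.08 (SE) for HD-het (adjusted p = 3.67e-07) and -0.43 ± 0.08 for HD-homo (adjusted p = 0.00127, edgeR).

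Genes known from epithelial junctions and the cell cortex lay in both directions, F11r and Cdsn among the higher and the following among the lower. Ppl, a desmosomal plakin, was 8.20-fold and 4.16-fold lower, and its HD-homo values of 2.72, 5.71 and 1.38 CPM spread about the HD-het mean of 1.66. Mpp7, a polarity scaffold, was 4.10-fold and 5.35-fold lower. Krt8, an epithelial keratin, was 2.21-fold and 2.44-fold lower, with 10.3 to 12.5 CPM in control and 2.27 to 7.12 CPM in mutant libraries. Pcdh1, a protocadherin, was 2.29-fold and 2.47-fold lower. Cgnl1, a junction protein related to cingulin, was 3.77-fold and 2.23-fold higher. No list of junction genes was fixed, so these were grouped after their values were seen. Prkar2b, a regulatory subunit of protein kinase A, had 109, 108 and 125 CPM in control, 33.9, 35.5 and 36.2 CPM in HD-het and 50.9, 60.4 and 46.3 CPM in HD-homo libraries. The transcription factors Zfp462 (3.66-fold and 4.74-fold) and Tbx3 (2.54-fold and 3.03-fold) were lower as well.

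Position on the chromosomes set few members together. Within 200 kb of each other lay 6 pairs, all of them higher: Ugt1a6a and Ugt1a6b (chromosome 1), Omd and Ogn (13), H2-D1 with H2-Q4 and H2-Q4 with Cdsn (17), Dusp2 and Fahd2a (2), and C1ra and C1rb (6). Cdsn, corneodesmosin of the skin, lay 158427 bases from H2-Q4 and was 3.44-fold and 2.58-fold higher. The share of genes at 5 CPM that were members ranged over the autosomes and X from 0.705% on chromosome 8 to 3.24% on chromosome 6. Another annotated gene overlapped 75 of the 165, and for 23 it was a named gene with a mean above 0 CPM in some line, so their fragments could be shared in counting. Whether the counting used strand is not given in the sources used here.

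At the edges of the rule the values were close together. Zfp518b (2.01-fold) and Mrc2 (2.02-fold) lay just inside the 2-fold threshold of the higher genes, while Ntpcr (2.00-fold, just under) and Gnb4 (1.99-fold) lay just outside. For the lower genes Sh3bgrl2 (2.12-fold) and Met (2.13-fold) lay inside and Grb14 and Lmo1 (1.98-fold) outside. On the limit between mutant means, H2-Q4 (1.99-fold) lay inside with Lamb2, and Lama4 (2.03-fold) and Fbxo32 (2.05-fold) outside. Among the lower genes it was Ppl (1.97-fold) and Dynap (1.97-fold) inside and Ccnd1 (2.14-fold) and Elavl2 (2.26-fold) outside. At the minimum of 5 CPM, Ugt1a6b (5.12 CPM), Fahd2a (5.42), Gap43 (5.27) and Rhpn2 (5.32) lay inside, and Cdh18 (4.98), Elmo1 (4.97), Sema4d (4.72) and Krt20 (4.67) outside.

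None of the genes that the study followed was a member. Htt itself had 28.9 ± 1.14 CPM in control, against 19.7 ± 0.753 for HD-het and 6.80 ± 1.14 for HD-homo (n = 3). Cgas, the sensor of cytosolic DNA, had 0.0159 ± 0.0276, 1.93 ± 0.339 and 44.6 ± 6.39 CPM in the same order. By edgeR, 7 of the 14 such rows tested were called higher in each line (50%, against 9.54% of all genes). Among the 7 were Cgas and its older symbol Mb21d1, which can count the same fragments. Htt alone was called lower in each (7.14%, against 7.46% of all genes). These shares are a description, since the paper examined these genes in its own ribosome profiles.

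Over the whole table, edgeR called 1209 genes higher (9.54% of 12678) and 946 lower (7.46%) in each mutant line, and 2984 higher (23.5%) and 3151 lower (24.9%) for the mean of both lines. All 165 members passed the count filter and were called in each line, which is no support for them, since the rule used the same values. Several lists in which few genes met the rule still held many such calls, and all of these contrasts share the 3 control libraries. Lysosomal hydrolases and membrane proteins had 13 of 49 called higher (26.5%) and none lower, and no member. Cytosolic ribosomal proteins had none called higher and 1 of 82, Rps29, called lower. Subunits of oxidative phosphorylation had none called higher and 4 of 47 called lower (8.51%), close to the background of 7.46%. For cell cycle and DNA replication genes, 2 of 65 were called higher and 9 lower, although the 2 called higher, Ccnb2 and Cdkn2c, were members.

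**Figure D4:**
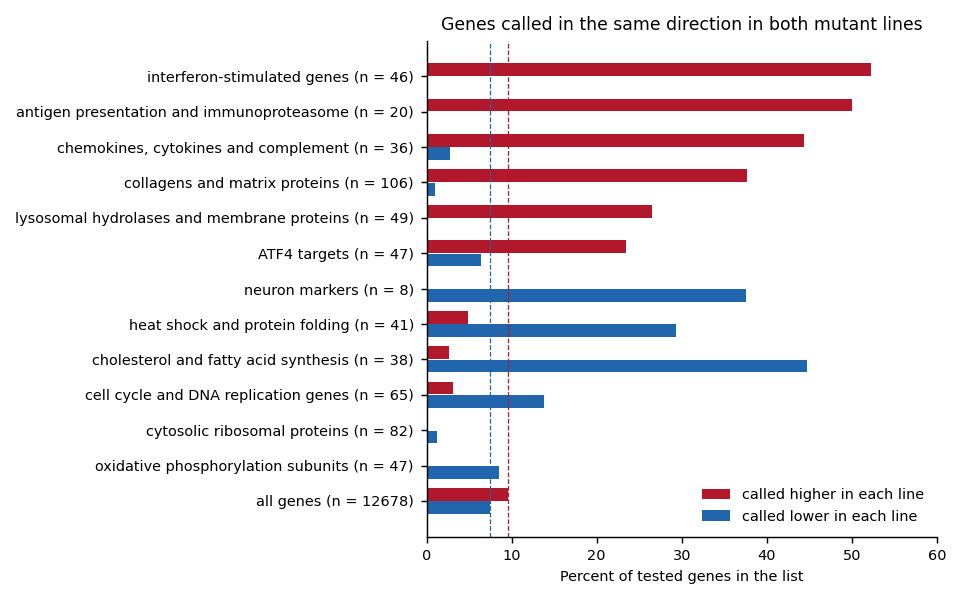
Bars give the percent of the tested genes of a list that edgeR called higher (red) or lower (blue) in each mutant line against control, and the dashed lines give the same over all 12678 genes (9.54% and 7.46%). Immune and matrix lists lie above the red line (52.2% of 46 interferon-stimulated genes), and cholesterol synthesis lies above the blue line (44.7% of 38).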

How the data were processed

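Ribo-seq libraries of the 3 striatal lines, 3 per line, were analysed. The values are whole-number counts of footprints for each gene symbol, deposited by the authors with a column for every library and neither normalized nor pooled. The submitters' processing notes name cutadapt, Bowtie 1.0.1 and mouse build mm10. Which program and annotation were used for counting, and whether strand was used, is not given in the sources used here. Groups were taken from the labels, and all 9 columns matched 1 sample by name. Of the 36410 rows, 19597 had no count, and a RefSeq GRCm38.p6 entry was found for 93.0%. Date-like symbols (26 rows, 0.252% of counts) and older symbols with a current row (283 rows, 0.222%) were kept and, apart from Mb21d1, not named.

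CPM was computed from column totals. Members were found by the rule given in the text, in Python 3.11.15 with pandas 2.3.3 and numpy 2.4.6. Means are given ± SD over 3 libraries. Where all control libraries had at most 3 counts, the fold was taken against 3 counts per library. This held for Dnajc15 and Bhlhb9 and set their rank among the largest folds. Library totals of 22504543 to 41888701 make this floor 0.0716 to 0.133 CPM, and floors and intervals cover counting error only, since amplified fragments are not independent molecules.

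The test across genes was edgeR's quasi-likelihood test (R 4.3.3, edgeR 4.0.16, limma 3.58.1) with TMM factors, filterByExpr and 3 group means over all 9 libraries, Benjamini-Hochberg adjusted over 12678 genes at 0.05. The script was tested on simulated data. Each SE is the size of the fitted log2 change divided by the square root of its F statistic. P-values measure only the spread between these libraries. The alternatives were RLE factors, total counts, DESeq2 1.42.0, other filters and thresholds, the replicate number as a block, and each library left out.

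The members, the 49 gene lists, the tests and the alternatives were chosen with earlier results of these data known. Genes were named by a rule: the 12 higher and 12 lower members with the largest smaller fold, the 6 of each with the highest CPM, list members (values for up to 4 per list), members within 200 kb of each other, the genes the study followed, and the 2 nearest each threshold. Predicted genes and clones were not named. A result under this rule is not reported here. Further members named outside this rule are identified as such in the text. Promoters (250 bases before to 50 after a start) are from RefSeq, and 12 motifs were searched on both strands. Matched mRNA was not used here.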

Additional observations from a re-analysis of the deposited data

Results flagged for a closer look

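Of the 14 rows of genes followed by the study that could be tested, 13 differed between HD-homo and HD-het (edgeR test of that difference itself, adjusted p under 0.05). Cgas and its older symbol Mb21d1 are separate rows that can count the same fragments. The share of all genes that differed between the mutant lines is not given here, so this count cannot be read as particular to these genes. The fitted log2 change of HD-homo against HD-het was -1.62 ± 0.11 (SE) for Htt (adjusted p = 3.44e-07), 4.44 ± 0.18 for Cgas (adjusted p = 5.13e-09) and 4.73 for its older symbol Mb21d1. Among genes of DNA sensing and its signalling it was 1.71 for Aim2, 1.13 for Tmem173, 0.27 for Tbk1, -0.77 for Irf3 and 2.55 for Irf7. It was 8.17 for Ccl5 and 6.23 for Cxcl10, both chemokines. It was 0.44 for Map1lc3a and -0.31 for Map1lc3b, which mark autophagosomes, and 0.87 for Fmr1, an RNA-binding protein. Of the other genes outside the set whose change in both lines is given, the difference was 4.16 for Isg15 and 0.90 for Hsph1. Groups of 3 libraries are too small for the check on single outlying values, so none was made.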

How the results depend on the processing

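The number of members followed the thresholds of the rule and hardly the scaling. Against 122 higher and 43 lower genes, CPM of TMM-scaled totals gave 124 and 45, and RLE-scaled totals 126 and 44, with 115 of the 122 and at least 41 of the 43 shared. A minimum of 1 CPM gave 227 and 72, 1.5-fold gave 265 and 148, 4-fold gave 38 and 11, and no limit between the mutant means gave 291 and 93. Under 1.5-fold between the mutant means left 79 and 33. Leaving out each library gave 111 to 129 higher and 37 to 48 lower genes. Of the members, 80 higher and 30 lower met the rule whichever library was left out. The largest losses among the higher genes came without HD-homo replicate 1 (18 lost) and HD-homo replicate 2 (16 lost).

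The edgeR calls in each line (1209 higher, 946 lower) became 780 and 584 at an adjusted p under 0.01, and 547 and 209 with at least 2-fold. Leaving out each library gave 942 to 1245 and 723 to 1021. For the mean of both lines (2984 and 3151), a 2-fold threshold gave 1059 and 605, the 6 mutant libraries as 1 group gave 818 and 511, and leaving out each library gave 2249 to 3097 and 2521 to 3322. The cause of these shifts was not tested. Deviations of same-numbered libraries correlated from -0.486 to 0.233. Correlations of libraries with different numbers were not computed, so whether replicate numbers pair the libraries cannot be told from these values. With the replicate block the counts were 1155, 910, 2800 and 3050. No named member changed direction under RLE factors, total counts, the replicate block or with any library left out, the alternatives run for single genes. Without 1 control library the fitted log2 change moved by more than the replicate SD for 4 of 72, which were Pir, Cd302, Rnf39 and Reck, each upward.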
